A study of Mus musculus with 17 samples.

Results

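The CXC chemokine genes of mouse chromosome 5 lie in a pair of clusters, and the peaks of open chromatin within 20 kb of 7 of these genes were followed through the LPS response of wild-type (WT) and Nur77-knockout (KO) macrophages. The first cluster held Cxcl5, Cxcl3, Cxcl1 and Cxcl2 (named Cxcl1-5 here), and the second held Cxcl9, Cxcl10 and Cxcl11 (Cxcl9-11). Bone marrow-derived macrophages (BMDMs), grown from the marrow of male C57Bl6/J mice (6 to 12 weeks old) in L929-conditioned medium, had been left without LPS (0 h) or exposed to 100 ng/ml LPS for 1 or 18 h before ATAC-seq, in which the transposase Tn5 inserts adapters where DNA is accessible. The 8 WT libraries comprised 3 at 0 h, 2 at 1 h and 3 at 18 h, and the 9 KO libraries comprised 3 at each time. The KO mice carried a deletion of floxed Nr4a1, the gene of Nur77, made throughout the body with a CMV-driven Cre that was later bred out, and the WT mice were littermates. The genotype field of the KO samples reads cre, whereas the study's methods describe the Cre as bred out. One of the WT lists at 1 h is labelled replicate 1-2, without a word on whether it pools replicates, and it is the shortest list of all. The labels number the replicates without saying whether they came from separate mice, so the p-values given here measure the spread between these lists of peaks, which may be technical.

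Each library came as 1 list of peaks. In all, 407 of the 1001519 peaks of the 17 lists lay within 20 kb of the 7 gene bodies, 206 of them around Cxcl1-5 and 201 around Cxcl9-11. Peaks of different lists whose summits fell in the same window of 501 bp were taken as 1 element, which gave 49 elements around the chemokine genes, 25 in Cxcl1-5 and 24 in Cxcl9-11, of 130095 in the genome. A remaining 44 (10.8%) of the 407 peaks had summits outside every such window and were left out. Over the whole series the share was 6.58%. In Cxcl1-5 this took 1, 0 and 0 peaks of the WT lists at 0 h, 3 and 4 at 1 h, and 2, 0 and 1 at 18 h. In the KO lists it took 0, 1 and 1, then 0, 5 and 2, then 0, 1 and 2. Elements are named here by their distance from the start of the nearest of the 7 genes. All coordinates are of mm10.

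CXC chemokines are small secreted proteins that guide leukocytes. Cxcl1, Cxcl2, Cxcl3 and Cxcl5 carry the ELR motif and attract neutrophils through the receptor Cxcr2. Cxcl9, Cxcl10 and Cxcl11 lack it, attract activated T cells and NK cells through Cxcr3, and are known as interferon-induced genes. In macrophages, LPS is sensed by Tlr4, which signals to NF-kB and AP-1 within minutes and, by way of secreted type I interferon, to factors that bind the interferon-stimulated response element (ISRE). Nur77 is an orphan nuclear receptor that is itself induced early by LPS.

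The promoter sequences of the genes at the centre of these results are shown first, as the 250 bases before the RefSeq transcription start (RefSeq, GRCm38.p6, the assembly of mm10), 5′ to 3′ on the strand of the gene. Capitals mark matches to the motifs of NF-kB, ISRE or AP-1. The promoter table held 5 of the 7 genes and did not list Cxcl5 and Cxcl11. The printed stretches lay at chr5:90890995-90891244 (plus strand) for Cxcl1, chr5:90903649-90903898 (plus) for Cxcl2, chr5:90785851-90786100 (plus) for Cxcl3, chr5:92328080-92328329 (minus) for Cxcl9 and chr5:92348890-92349139 (minus) for Cxcl10.
Cxcl1 promoter: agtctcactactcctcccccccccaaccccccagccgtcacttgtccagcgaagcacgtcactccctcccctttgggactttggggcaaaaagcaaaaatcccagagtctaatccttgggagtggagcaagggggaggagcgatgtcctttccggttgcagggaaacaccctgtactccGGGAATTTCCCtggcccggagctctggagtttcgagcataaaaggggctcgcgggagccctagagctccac
Cxcl2 promoter: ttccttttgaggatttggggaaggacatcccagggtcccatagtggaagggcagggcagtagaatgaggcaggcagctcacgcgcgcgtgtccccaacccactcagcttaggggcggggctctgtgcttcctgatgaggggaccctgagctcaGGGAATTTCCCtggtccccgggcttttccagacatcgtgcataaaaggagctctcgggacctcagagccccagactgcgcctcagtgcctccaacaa
Cxcl3 promoter: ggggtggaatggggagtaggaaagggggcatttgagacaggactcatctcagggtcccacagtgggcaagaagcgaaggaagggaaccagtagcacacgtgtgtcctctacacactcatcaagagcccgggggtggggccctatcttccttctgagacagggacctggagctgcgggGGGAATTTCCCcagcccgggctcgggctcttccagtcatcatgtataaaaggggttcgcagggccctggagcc
Cxcl9 promoter: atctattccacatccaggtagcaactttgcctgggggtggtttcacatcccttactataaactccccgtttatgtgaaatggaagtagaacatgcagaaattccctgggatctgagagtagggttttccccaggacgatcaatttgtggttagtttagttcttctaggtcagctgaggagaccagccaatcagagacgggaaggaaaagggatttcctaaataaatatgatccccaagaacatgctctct
Cxcl10 promoter: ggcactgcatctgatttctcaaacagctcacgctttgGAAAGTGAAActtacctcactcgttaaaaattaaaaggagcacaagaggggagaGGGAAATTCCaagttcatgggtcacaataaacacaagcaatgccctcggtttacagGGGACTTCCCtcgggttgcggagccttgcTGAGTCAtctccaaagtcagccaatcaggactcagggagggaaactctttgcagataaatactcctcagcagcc

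The promoters of Cxcl1, Cxcl2 and Cxcl3 held the same NF-kB match, GGGAATTTCC, at bases 71 to 62, 97 to 88 and 73 to 64 before the start. Each of these also matched on the other strand, shifted by 1 base. The Cxcl10 promoter held a pair of NF-kB matches, GGGAAATTCC at bases 159 to 150 and GGGACTTCCC at bases 103 to 94, together with an ISRE match, GAAAGTGAAA, at bases 213 to 204 and an AP-1 match at bases 74 to 68. None of the 6 motifs searched (NF-kB, the ISRE letters GAAANNGAAA, the AP-1 letters TGANTCA, the C/EBP letters TTGCNNAA, the PU.1 letters GAGGAAGT and the Nur77 letters AAAGGTCA, each on both strands) matched in the Cxcl9 window. Of all 32851 promoters of the same length, 3.90% held an NF-kB match, 2.98% an ISRE match and 6.75% an AP-1 match. A match is a string of letters and does not show binding.

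Sequence is also given for 4 elements outside promoters, those with peaks at all 3 times and a late gain of rank. Each line is the 201 bp around the summit on the plus strand of GRCm38.p6. The first lay between genes, 9378 bp upstream of Cxcl1, at chr5:90881763-90881963, with matches to AP-1 and C/EBP in capitals. The others lay in introns of Art3, the gene of an ADP-ribosyltransferase family member that spans Cxcl10 and Cxcl11 on the opposite strand. They were the element 4868 bp upstream of Cxcl10 at chr5:92353657-92353857 (NF-kB in capitals), the element 3759 bp upstream of Cxcl11 at chr5:92369144-92369344 (AP-1) and the element 9462 bp upstream of Cxcl11 at chr5:92374847-92375047 (NF-kB).
Cxcl1 upstream 9378: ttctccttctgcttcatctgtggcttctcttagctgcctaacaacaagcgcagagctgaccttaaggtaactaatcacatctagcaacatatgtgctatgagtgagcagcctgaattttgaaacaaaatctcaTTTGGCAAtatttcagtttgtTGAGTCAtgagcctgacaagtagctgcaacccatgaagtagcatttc
Cxcl10 upstream 4868: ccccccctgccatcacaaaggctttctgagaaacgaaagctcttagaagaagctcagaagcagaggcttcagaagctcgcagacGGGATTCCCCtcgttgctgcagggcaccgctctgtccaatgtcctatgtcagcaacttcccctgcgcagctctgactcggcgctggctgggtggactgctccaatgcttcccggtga
Cxcl11 upstream 3759: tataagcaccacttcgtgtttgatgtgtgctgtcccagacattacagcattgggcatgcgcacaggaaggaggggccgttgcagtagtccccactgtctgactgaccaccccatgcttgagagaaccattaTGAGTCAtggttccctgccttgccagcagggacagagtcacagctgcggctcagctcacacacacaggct
Cxcl11 upstream 9462: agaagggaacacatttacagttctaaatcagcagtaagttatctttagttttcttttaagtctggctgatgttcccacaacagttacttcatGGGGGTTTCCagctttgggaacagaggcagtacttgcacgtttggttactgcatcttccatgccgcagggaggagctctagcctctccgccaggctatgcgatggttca

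Over windows of 201 bp around the summits, an NF-kB match was found in 2 of 25 Cxcl1-5 elements and 4 of 24 Cxcl9-11 elements, against 4.06% of all 130095 elements. AP-1 matched in 5 and 6 elements (15.5% of all), C/EBP in 3 and 4 (10.2%), PU.1 in 4 and 0 (6.07%), and ISRE in 1 and 1 (3.43%). These shares are descriptions of few elements.

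The lists differed widely in depth. They held from 26558 to 92594 entries (median 52171), and an index of depth, the background expected under the peaks, ranged from 0.382 to 9.75 reads per kb. KO 18 h replicate 1 also had narrower peaks, with a median width of 148 bp where the other lists had 365 to 901. Its shortest peak of 66 bp, by which the index divides, raised its index. A score therefore could not be compared between lists, and each entry was ranked inside its own list by its −log10 p, with rank 1 the strongest. Ranks beyond 26558, the length of the shortest list, and absent peaks were both set to 26558 for the tests, so that a long list could not contribute ranks that a short list had no room for. Differences are given as a gain of rank on the log2 scale, with the standard error (SE) of limma. A gain is positive where the element ranked better in the group named first, and a gain of 1 stands for a rank number smaller by a factor of 2. Of 8 macrophage genes, 5 had a promoter peak in all 17 lists, and the others in at least 14. Of 19 genes of other cell types, none had one in all lists and 10 had one in none, while Ms4a1 and S100a8 had a promoter peak in 16 lists each and Col1a1 in 14. Some marker promoters were called with LPS as well. Of the 8 macrophage promoters, 1 ranked better and 4 worse at 1 h against 0 h, among the latter Lyz2 (−1.16, adjusted p = 0.000507) and Spi1, the gene of PU.1 (−1.09, adjusted p = 0.0291), and 0 ranked better and 3 worse at 18 h, by limma. From 1 to 18 h, 3 (Itgam, Spi1 and Fcgr1) ranked better and 0 worse. Over all elements tested, the shares called better and worse were 13.3% and 14.4% at 1 h, 9.53% and 13.0% at 18 h, and 12.4% and 14.8% from 1 to 18 h. Of the 3 tested promoters of other cell types, that of the B cell gene Ms4a1 ranked better at 18 h against 1 h (0.40, adjusted p = 0.0329) and had a gain of 0.73 at 18 h against 0 h, where every 0 h value stood at the rank limit defined above, that of the fibroblast gene Col1a1 ranked worse at 18 h against 1 h (−0.40, adjusted p = 0.00806), and none was called at 1 h. The part of these movements in the chemokine results was not tested. A better rank in bulk chromatin can come from more cells with the site open or from a more open site in each cell, and these cannot be told apart. The deleted part of Nr4a1 is not given in the labels, and its gene body still had a peak in KO lists, 8458 bp after the start in 8 of 9 of them, so the peaks do not check the genotype.

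**Figure D1:**
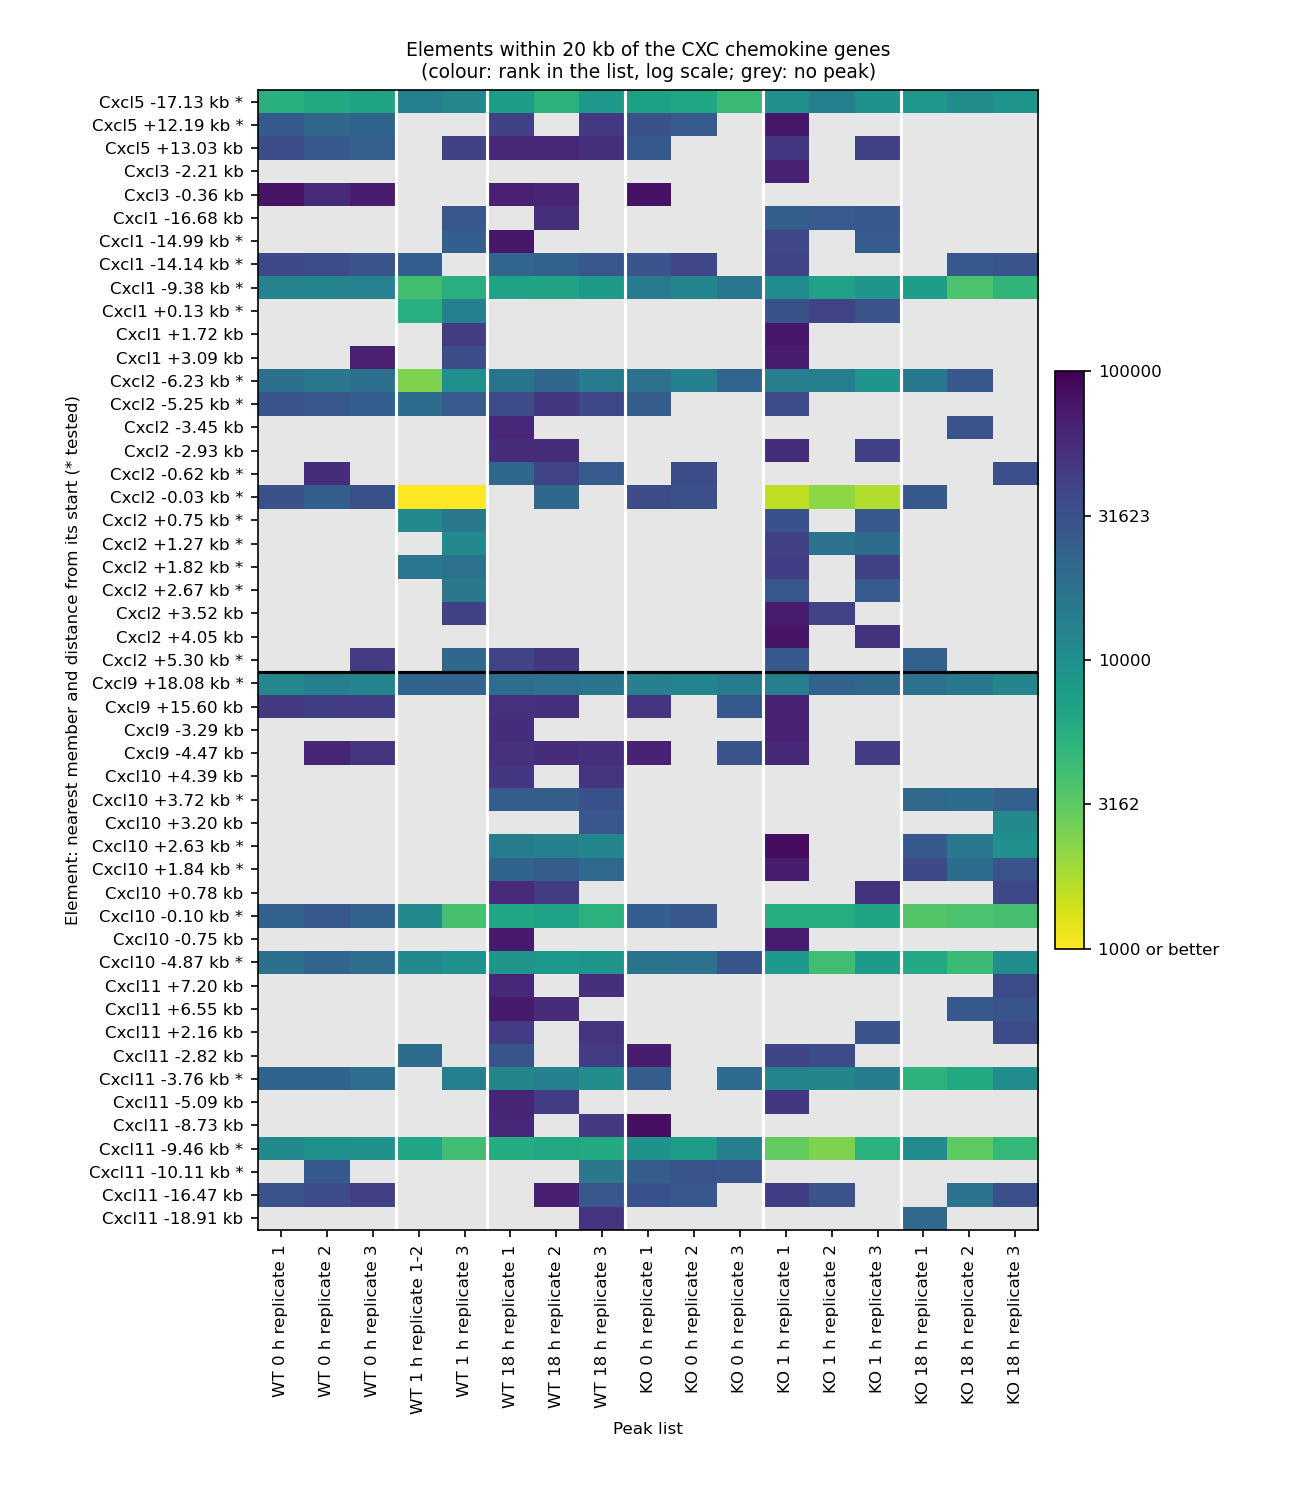
Rank of each of the 49 elements (rows, ordered along chromosome 5, named by the nearest gene and the distance in kb) in each of the 17 lists (columns). Yellow is rank 1000 or better on a log colour scale, grey is no peak, the black line separates Cxcl1-5 from Cxcl9-11, and 9 elements of Cxcl1-5 appear in the 1 h columns alone while 6 of Cxcl9-11 appear in the 18 h columns alone.

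Many elements of both clusters had no peak before LPS. Of the 49 elements, 13 of 25 in Cxcl1-5 and 13 of 24 in Cxcl9-11 had no peak in any list at 0 h, against 21.0% of all elements. The clusters then parted in time. In Cxcl1-5, 9 of 25 elements had peaks in 1 h lists alone and 1 in 18 h lists alone, whereas in Cxcl9-11 the numbers were 0 and 6 of 24. Over the genome, 8.88% of elements appeared in 1 h lists alone and 8.94% in 18 h lists alone. A list cannot hold ranks beyond its length. The WT lists had 26558 and 49267 entries at 1 h and 58461 to 83628 at 18 h. A KO list at 1 h had 90176. The element 6549 bp past the Cxcl11 start, seen at 18 h alone, ranked 55683 and 71129 in WT, beyond the WT lists at 1 h. The part of list length in these counts was not tested. Just 2 elements of Cxcl1-5 and 3 of Cxcl9-11 had a peak in all 17 lists (9.48% of all elements), and all 5 lay outside the promoters of the 7 chemokine genes.

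The same timing was seen when every list was restricted to its best 26558 ranks. In WT macrophages, Cxcl1-5 had 4.67 ± 1.53 elements within these ranks at 0 h (SD, n = 3), 9 and 11 in the 2 lists at 1 h, and 4.67 ± 0.577 at 18 h (n = 3). In KO macrophages the numbers were 3.33 ± 0.577, 5.67 ± 1.15 and 2.67 ± 1.15 (n = 3 each). Within these ranks both WT lists at 1 h held more Cxcl1-5 elements than any other list. Counted with peaks of any rank they held 9 and 17 Cxcl1-5 elements, against 22, 8 and 14 in the KO lists at 1 h, of which the first was the longest. Cxcl9-11 had 4.67 ± 0.577, then 5 in each 1 h list, then 8 in every 18 h list of WT, and 4 ± 1.73, 5 ± 0 and 8 ± 1 in KO (SD, n = 3 each). No list at 0 or 1 h held more than 6 Cxcl9-11 elements, and no list at 18 h held fewer than 7.

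**Figure D2:**
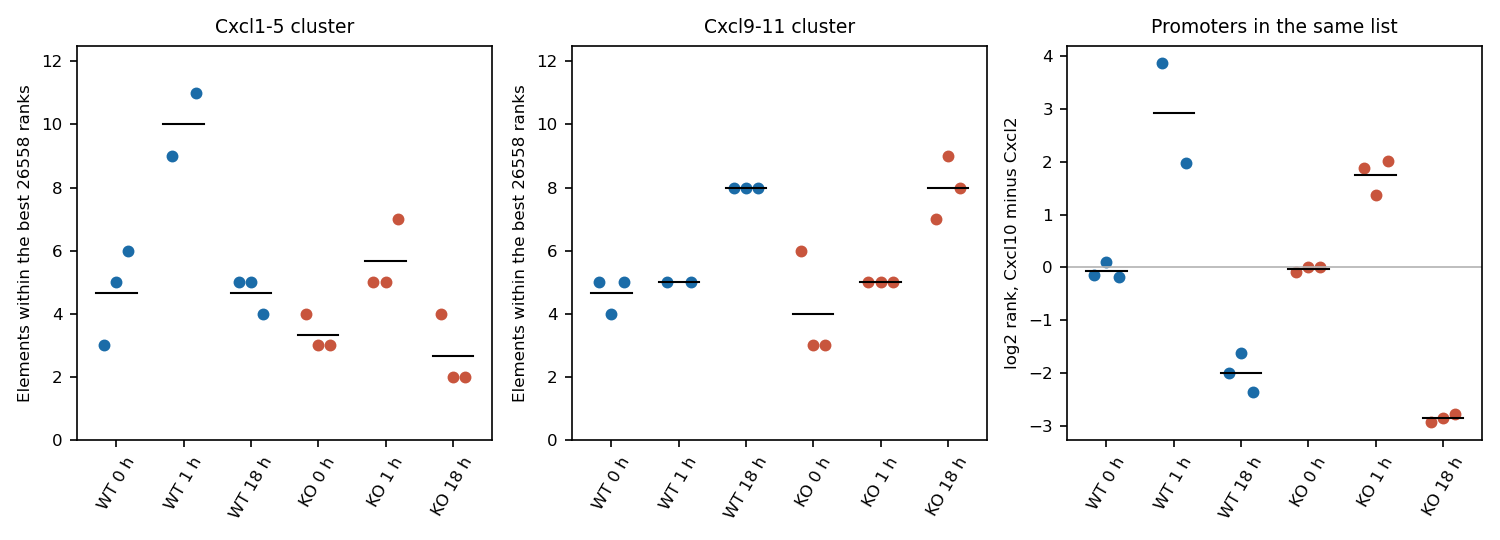
Number of elements within the best 26558 ranks of each list for Cxcl1-5 (left) and Cxcl9-11 (middle), and the log2 rank of the Cxcl10 promoter minus that of the Cxcl2 promoter in the same list (right, above 0 where Cxcl2 ranked better). Points are lists (blue WT, red KO), lines are group means, and at 1 h every list lies above 0 in the right panel whereas at 18 h every list lies under it.

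Of the 49 elements, 24 (15 in Cxcl1-5, 9 in Cxcl9-11) reached the best 26558 ranks in at least 2 lists and entered the test across 37804 elements of the genome. The other 25 did not. They had peaks in 1 to 10 lists in Cxcl1-5 and in 2 to 11 in Cxcl9-11, reached the best 26558 ranks in at most 1 list each, and are described by their peaks alone. Calls were made with limma at an adjusted p (Benjamini-Hochberg over all 37804 elements) under 0.05.

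At 1 h against 0 h, 10 elements ranked better, 7 in Cxcl1-5 and 3 in Cxcl9-11, against 13.3% of all elements tested, and 2 ranked worse, 1 in each cluster, against 14.4%. Of the 7 better calls in Cxcl1-5, 4 were at elements whose 0 h values all stood at the rank limit, as in 41.1% of the better calls in the genome. Such an element entered the test through 1 h lists alone, so the filter fixed its direction and it is given here by its ranks and gain, with no p. The other 3 calls in Cxcl1-5 and the 3 in Cxcl9-11 had some values within the limit on both sides.

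Cxcl2 had the largest gain at 1 h among the 24 tested elements. Its promoter element (chr5:90903590-90904090, summit 31 bp upstream of the start) ranked 31975, 24812 and 32243 in the WT lists at 0 h and 775 and 960 at 1 h. It ranked 21558 in 1 WT list at 18 h and was absent from the other two. In KO it ranked 34913 and 32663 in 2 lists at 0 h with no peak in the third, then 1541, 2185 and 1699 at 1 h, then 27831 in 1 list at 18 h with no peak in the others. The 5 lists at 1 h stood apart from the other 12 with no overlap, in both genotypes. The gain at 1 h was 4.40 (SE 0.152, adjusted p = 3.17e-10, limma), a rank 21.1 times smaller, with 4.91 in WT and 3.89 in KO. From 1 to 18 h the value was −4.37 (SE 0.152, adjusted p = 1.87e-10). At 0 h and at 18 h, 5 of 6 values stood at the rank limit, all KO values among them, so the value at 18 h against 0 h could hardly move and is not read here. The gain at 1 h, its factor of 21.1 and the value from 1 to 18 h are likewise counted mostly from the limit. The KO gain of 3.89 is counted wholly from it. Equal values there lower the SE, so the size of these p-values is not read here. Peaks of any rank were found in 5 of 6 lists at 0 h and 2 of 6 at 18 h. The 201 bp around its summit hold the NF-kB match shown for the Cxcl2 promoter.

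Cxcl1 showed peaks at its start at 1 h and at no other time. The promoter element (chr5:90891120-90891620, summit 129 bp past the start, over the first exon) ranked 5589 and 13704 in WT at 1 h and 32188, 38821 and 30901 in KO at 1 h, and it was absent from all 12 lists at 0 and 18 h. Its gain at 1 h was 0.80, which is 1.60 in WT and 0 in KO, where every rank lay beyond 26558. Within the Cxcl2 gene the pattern recurred at the elements 746, 1274 and 1824 bp past the start, which lay over annotated exons and had peaks at 1 h alone. Their gains at 1 h were 0.49, 0.48 and 0.32. All 4 elements entered the test through their 1 h lists.

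No element at the starts of the remaining ELR chemokines shared this pattern. The Cxcl3 promoter element, 358 bp upstream of the start, was a weak peak at ranks 78178, 57314 and 68642 in WT at 0 h, 64973 and 62011 in 2 WT lists at 18 h and 79650 in 1 KO list at 0 h, and none of the 5 lists at 1 h held it. Peaks left out for lying outside every window were not followed, so a 1 h peak beside this element could have been missed. Cxcl5 had no element within 1 kb of its start. Lists shorter than these ranks had no room for the Cxcl3 peak, while 1 KO list at 1 h with 90176 entries lacked it too. The Cxcl3 promoter, with the same NF-kB letters as Cxcl1 and Cxcl2, therefore did not enter the test.

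**Figure D3:**
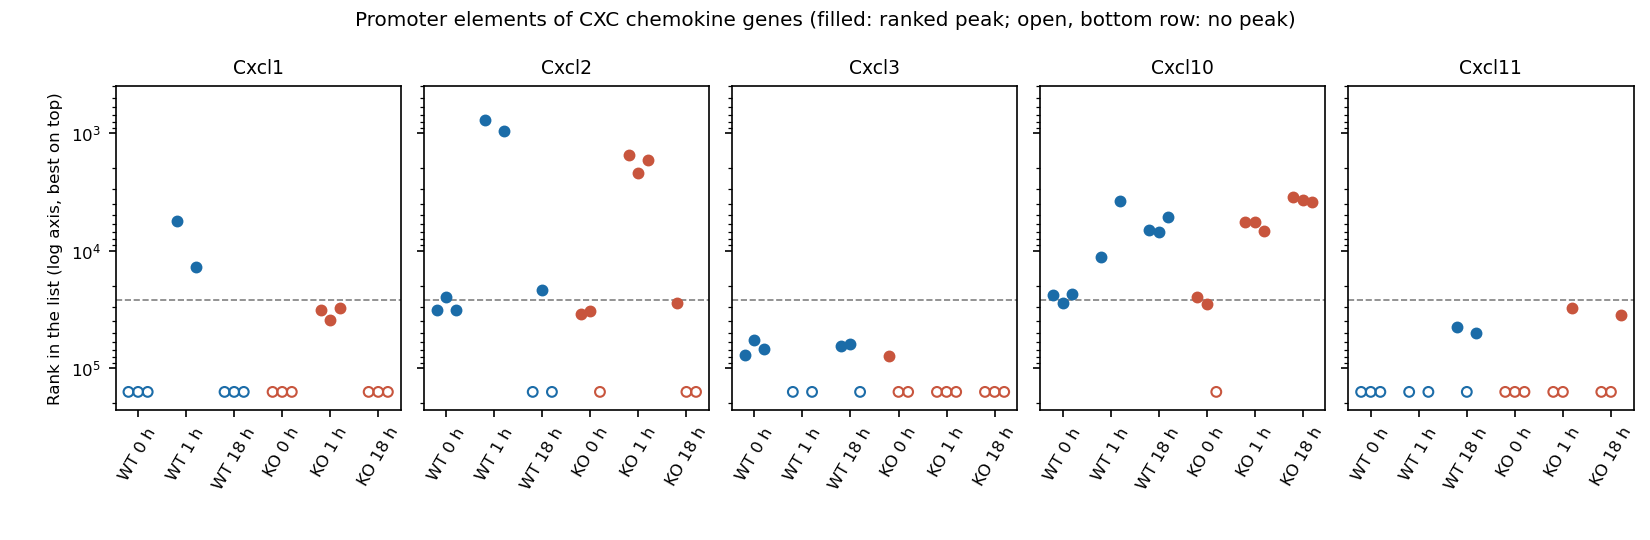
Rank of the promoter element of Cxcl1, Cxcl2, Cxcl3, Cxcl10 and Cxcl11 in every list (log axis, best rank on top), by genotype and hours of LPS. Filled points are ranked peaks, open points at the bottom are lists with no peak, and the dashed line is rank 26558; Cxcl2 has its best ranks (775 to 2185) at 1 h, and Cxcl10 ranks between 3482 and 11318 at both 1 and 18 h.

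Upstream of the ELR genes, 3 elements with peaks in 16 or 17 lists behaved in 3 ways. The element 9378 bp upstream of Cxcl1 ranked 12672, 12847 and 13069 in WT at 0 h, 4037 and 5556 at 1 h, and 7061, 6754 and 8073 at 18 h. In KO it ranked 15080, 12577 and 16520, then 10700, 7045 and 9042, then 7693, 3684 and 4948. By rank, no list at 0 h overlapped any list with LPS. As a percentage of the list they overlapped. At 0 h WT stood at 14.1 to 16.2 and KO at 16.6 to 52.0, and at 1 h WT at 11.3 and 15.2 and KO at 11.9 to 17.3. The gain was 1.09 (SE 0.207, adjusted p = 0.00105) at 1 h and 1.16 (SE 0.195, adjusted p = 0.000539) at 18 h, and this was the one Cxcl1-5 element called better at 18 h. It was thus open throughout and ranked better at both times, unlike the promoters beside it.

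The element 6230 bp upstream of Cxcl2 (chr5:90897391-90897891) gained at 1 h and lost the gain by 18 h. It ranked 18356, 16021 and 18274 in WT at 0 h, 2468 and 9891 at 1 h, and 16688, 21000 and 15291 at 18 h. The KO ranks were 17671, 13118 and 22276, then 13975, 13664 and 9042, then 15450 and 27946 with no peak in the last list. The gain was 1.18 at 1 h (SE 0.301, adjusted p = 0.00858) and −1.36 at 18 h against 1 h (SE 0.301, adjusted p = 0.00331). Here 2 of the 3 KO ranks at 1 h lay within the range of the KO ranks at 0 h, and the separate gains were 1.83 in WT (adjusted p = 0.0123) and 0.53 in KO (adjusted p = 0.444). The call at 1 h was not kept by the exact permutation test of each element (adjusted p = 0.0631).

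The element 17133 bp upstream of Cxcl5 (chr5:90741977-90742477), the best ranked of its cluster over all lists, moved the other way. It ranked 5401, 6062 and 6826 in WT at 0 h, 13590 and 11901 at 1 h, and 7722, 5114 and 8496 at 18 h. In KO it ranked 7290, 6586 and 4353, then 9784, 13664 and 9550, then 8565, 10483 and 9149. By rank, every list at 1 h was worse than every list at 0 h, with a gain of −0.97 (SE 0.203, adjusted p = 0.00219), and the value at 18 h was −0.43 (adjusted p = 0.126). As a percentage of the list, KO 1 h replicate 1 stood at 10.8, within the 8.01 to 14.7 of KO at 0 h. The 201 bp around its summit hold a PU.1 match, as do 6.07% of all elements; PU.1 is the lineage factor of macrophages.

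In Cxcl9-11, the Cxcl10 promoter element (chr5:92348741-92349241, summit 102 bp upstream of the start) was open late as well as early. It ranked 24116, 28167 and 23350 in WT at 0 h, 11318 and 3792 at 1 h, and 6633, 7003 and 5187 at 18 h. In KO it ranked 25029 and 28451 with no peak in the third list at 0 h, then 5700, 5686 and 6850, then 3482, 3684 and 3864. By rank, all lists with LPS were better than all lists without. As a percentage of the list, WT 1 h replicate 1-2 stood at 42.6, against 25.2 to 35.5 in WT at 0 h. Every other list with LPS was still better than every list without. The gain was 2.01 (SE 0.231, adjusted p = 1.19e-05) at 1 h and 2.41 (SE 0.217, adjusted p = 3.81e-06) at 18 h, a rank 5.30 times smaller. At 0 h the WT rank of 28167, the KO rank of 28451 and the KO list without a peak stood at the rank limit. The gains are thus counted partly from the limit. From 1 to 18 h the value was 0.40 (SE 0.231, adjusted p = 0.220).

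Cxcl9, also known as the monokine induced by interferon-gamma, had no element within 1 kb of its start. Cxcl11 had a weak one, 2158 bp past the gene start and 50 bp from the start of a shorter transcript, at ranks 45083 and 49962 in 2 WT lists at 18 h, 30901 in 1 KO list at 1 h and 35156 in 1 KO list at 18 h, which did not enter the test. Within this cluster the promoter data thus concern Cxcl10 alone. The annotation used (GENCODE vM21) lists Cxcl11 as a polymorphic pseudogene.

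The Art3 introns upstream of Cxcl10 and Cxcl11 held elements that gained with it. The element 4868 bp upstream of Cxcl10 ranked 18356, 22174 and 19192 in WT at 0 h, 11318 and 9891 at 1 h, and 9129, 8625 and 8931 at 18 h. In KO it ranked 16986, 18000 and 29254, then 8462, 4141 and 8108, then 6225, 4336 and 10551. By rank, no list at 0 h overlapped any list with LPS, and the gain was 1.26 (SE 0.248, adjusted p = 0.00136) at 1 h and 1.38 (SE 0.233, adjusted p = 0.000543) at 18 h. As a percentage of the list they overlapped. WT stood at 20.7 to 27.9 at 0 h and at 20.1 and 42.6 at 1 h, and KO at 18.7 to 92.0 at 0 h and 12.6 to 27.7 at 18 h.

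The element 9462 bp upstream of Cxcl11, the best ranked of this cluster, went from 11155, 9919 and 9714 in WT at 0 h to 6661 and 4117 at 1 h and 5744, 6240 and 5978 at 18 h. In KO it ranked 9638, 8017 and 13654, then 3030, 2422 and 5275, then 10776, 3147 and 4655. The gain was 1.28 (SE 0.303, adjusted p = 0.00526) at 1 h and 0.84 (SE 0.286, adjusted p = 0.0449) at 18 h. At 18 h 1 KO list, the narrow-peaked KO 18 h replicate 1, lay within the range of the 0 h lists. As a percentage of the list, WT 1 h replicate 1-2 stood at 25.1, against 10.5 to 13.8 in WT at 0 h. The call at 18 h was not kept by the exact permutation test of each element (adjusted p = 0.0812) or within either genotype by limma (adjusted p = 0.303 in WT and 0.149 in KO).

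The element 3759 bp upstream of Cxcl11 ranked 22705, 22593 and 19026 in WT at 0 h, 13704 in 1 list at 1 h with no peak in the other, and 12188, 13373 and 10492 at 18 h. The KO ranks were 25685 and 20102 with 1 list without a peak, then 12667, 12143 and 14215, then 5096, 6059 and 10551. The 4 ranks at 1 h were all better than the best rank at 0 h, and the remaining list, WT 1 h replicate 1-2, had no peak. The gain at 1 h missed the threshold (0.52, SE 0.216, adjusted p = 0.0844), with 0.16 in WT and 0.88 in KO (adjusted p = 0.0503 in KO). At 18 h it was 1.32 against 0 h (SE 0.203, adjusted p = 0.000267) and 0.79 against 1 h (SE 0.216, adjusted p = 0.0121).

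Past the Cxcl10 start, 3 elements had nearly all of their peaks at 18 h, and each entered the test through 18 h lists alone, so their gains are a description. The element 2632 bp past the Cxcl10 start, over an Art3 exon (chr5:92346007-92346507), ranked 14294, 13101 and 12075 in WT at 18 h and 27831, 15662 and 9827 in KO, and its single other peak was at rank 86383 in 1 KO list at 1 h. Its gain was 0.87 against both 0 h and 1 h. The element 3716 bp past the start, over another Art3 exon, had peaks in the 6 lists at 18 h alone, at 25720, 25626 and 31541 in WT and 20402, 19554 and 24501 in KO, with a gain of 0.17 against both. The last, inside the Cxcl10 gene and over its exon, 1840 bp past the start, ranked 22843, 25626 and 20616 in WT and 36238, 19554 and 29965 in KO at 18 h, and 70597 in 1 KO list at 1 h. Its gain of 0.18 at 18 h against 0 h was not called.

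At 18 h against 0 h, then, 7 elements ranked better, 1 in Cxcl1-5 and 6 in Cxcl9-11, against 9.53% of all elements tested. By limma 0 elements ranked worse (13.0% of all), with 1 at an unadjusted p under 0.05 and 0 by an exact permutation test of each element. From 1 to 18 h, 3 elements ranked better, all in Cxcl9-11 (12.4% of all), and 6 ranked worse, all in Cxcl1-5 (14.8% of all). One side of the comparison stood wholly at the rank limit in 2 of the 6 Cxcl9-11 calls at 18 h against 0 h, and in 2 of the 3 better and 4 of the 6 worse calls from 1 to 18 h.

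**Figure D4:**
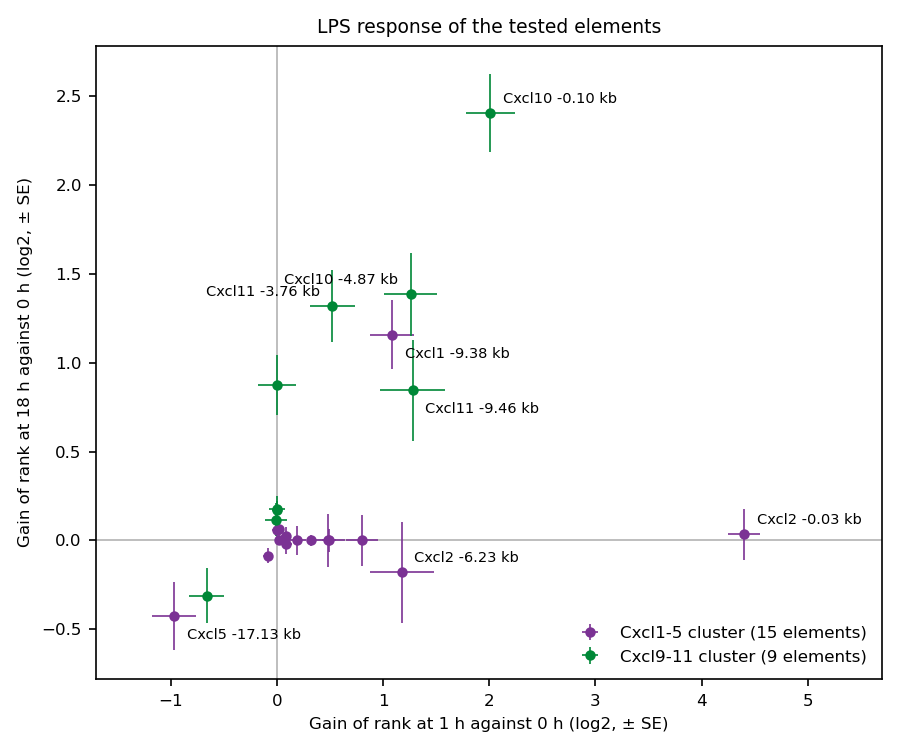
Gain of rank at 1 h (horizontal) against the gain at 18 h (vertical), both on the log2 scale relative to 0 h and with SE bars from limma, for the 24 tested elements (purple Cxcl1-5, green Cxcl9-11). The 0 h lists are common to both axes; the Cxcl2 promoter lies far right at 4.40 and 0.03, and the Cxcl10 promoter at 2.01 and 2.41.

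The best-ranked promoter of each cluster was compared with the other inside each list, as the gain of the Cxcl10 promoter minus that of the Cxcl2 promoter. The pair was chosen with earlier results of these data known, so the test bears on these 2 promoters and is no independent evidence of a contrast between the clusters. At 1 h the difference was −2.39 (−3.00 in WT and −1.79 in KO), with the Cxcl2 promoter ahead. At 0 h, 5 of 6 Cxcl2 values and some Cxcl10 values stood at the rank limit, and the log2 ranks differed by −0.186 to 0.0981. The value at 1 h is thus nearly the rank order of the 2 promoters at 1 h. From 1 to 18 h the difference was 4.77 (4.92 in WT and 4.61 in KO), where 5 of the 6 Cxcl2 values at 18 h stood at the rank limit. Both had p = 0.005 in a two-sided exact permutation test within genotype, the smallest value that its 200 regroupings can give, and 0.005 after Benjamini-Hochberg adjustment over the 3 comparisons of times. At 18 h against 0 h the value of 2.37 was nearly that of the Cxcl10 gain alone, since the Cxcl2 promoter stood at the limit in 5 of 6 lists at each time, and it is not read as a difference between the promoters. The order of the promoters, Cxcl2 ahead at 1 h and Cxcl10 ahead at 18 h, held in all 5 lists at 1 h and all 6 at 18 h.

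Nur77 deficiency was compared next, over all times and then as a difference in the response to LPS. Over all times, by limma, 2 elements ranked worse in KO, both in Cxcl1-5, against 0.434% of all elements tested, and 0 ranked better (0.159% of all), with 2 better at an unadjusted p under 0.05. In the response at 1 h, 3 elements gained less in KO, all in Cxcl1-5 (0.251% of all), and 0 gained more (0.0846% of all), with 0 at an unadjusted p under 0.05. All of these calls were at elements with every KO value at the rank limit, which entered the test through the 2 WT lists at 1 h alone. The filter thus fixed their direction and an equal value in all KO lists lowered their SE, so these calls are no evidence of a difference between the genotypes, and in these 2 comparisons 0 calls were made at any other member. At 1 h alone, a contrast added after its values were seen, 4 elements ranked worse in KO (0.846% of all), the same 3 and the Cxcl2 promoter, and 0 ranked better (0.455% of all), with 0 better at an unadjusted p under 0.05. An exact permutation test of each element called 0 in either comparison, in the genome as well, but with 66 and 133 elements at its smallest p (0.00025 and 0.005) it could pass no threshold over 37804 elements.

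The 3 elements, given by their ranks as a description, were the Cxcl1 promoter element and the elements 746 and 1824 bp past the Cxcl2 start, all of them seen at 1 h alone. The first ranked 5589 and 13704 in WT and 32188, 38821 and 30901 in KO, with no overlap, and the difference in response, KO minus WT, was −1.60. The element at 746 bp ranked 11318 and 15928 in WT and 31235 and 28355 in 2 KO lists with none in the third, a difference in response of −0.98. The element at 1824 bp ranked 16430 and 17703 in WT and 42237 and 40981 in 2 KO lists, a difference of −0.64.

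The ranks compared here came from lists of different length and depth. The WT lists at 1 h had 26558 and 49267 entries and a depth index of 0.382 and 1.61 reads per kb, and the KO lists had 90176, 40613 and 52171 entries and 4.14, 0.593 and 1.22 reads per kb. As a percentage of the list, the Cxcl1 promoter element stood at 21.0 and 27.8 in WT and at 35.7, 95.6 and 59.2 in KO, still apart. The element at 746 bp stood at 42.6 and 32.3 in WT and 34.6 and 54.3 in KO, and that at 1824 bp at 61.9 and 35.9 in WT and 46.8 and 78.6 in KO, so these overlapped. With ranks taken as a percentage of the list, 0 members were called in either comparison. The Cxcl1 promoter peak held 12 and 26 reads at its summit in WT and 30, 3 and 10 in KO. Without WT 1 h replicate 1-2, the shortest list, 1 member was called in each of the 2 comparisons. The part of depth in these differences was not tested.

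**Figure D5:**
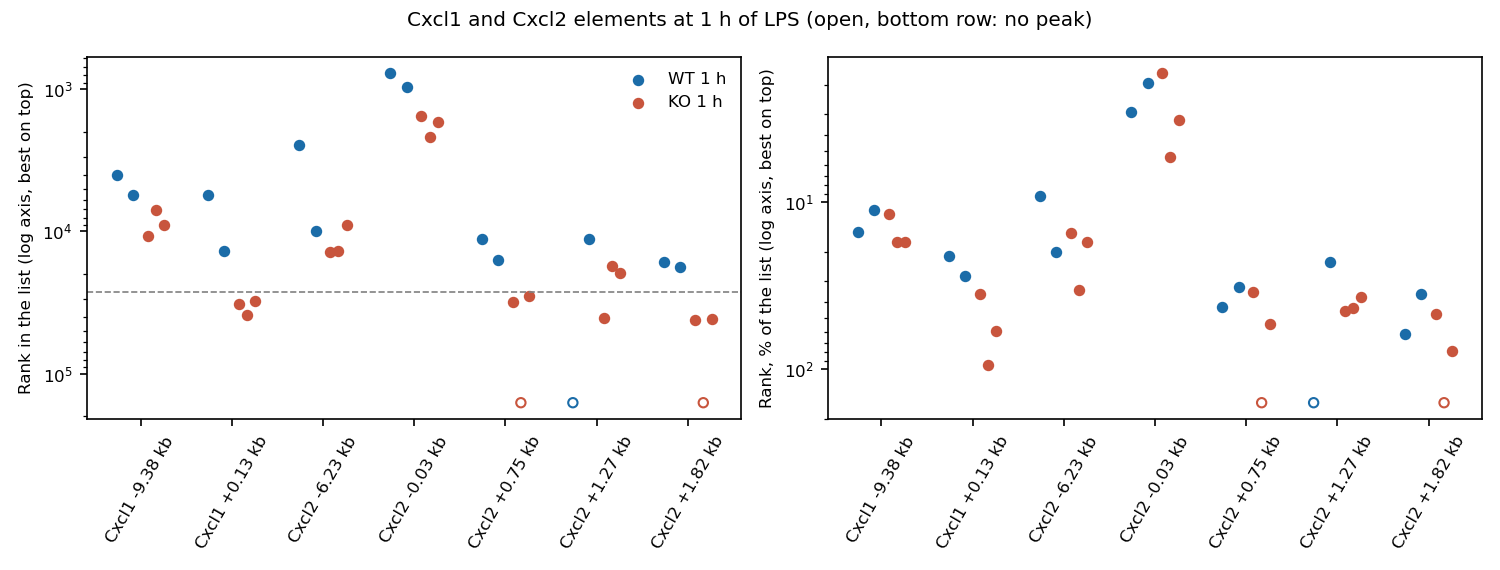
Rank (left) and rank as a percentage of the list (right) of 7 Cxcl1 and Cxcl2 elements in the 2 WT (blue) and 3 KO (red) lists at 1 h, on log axes with the best rank on top and open points for lists with no peak. On the left the genotypes are apart at both Cxcl1 elements and at 3 Cxcl2 elements (the promoter and those 746 and 1824 bp past the start), and on the right they stay apart at the Cxcl1 promoter element alone.

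The Cxcl2 promoter had ranks of 775 and 960 in WT and 1541, 2185 and 1699 in KO at 1 h, without overlap, but its difference in response of −1.02 missed the threshold (SE 0.304, adjusted p = 0.291). As a percentage of the list the ranks were 2.9 and 1.9 in WT and 1.7, 5.4 and 3.3 in KO, which overlap. At 1 h alone, KO minus WT was −1.05 (SE 0.226, adjusted p = 0.0307, limma), the 1 call between genotypes in these comparisons at a member with values within the limit in both. It was −0.38 (adjusted p = 0.762) with ranks as a percentage of the list and −0.90 (adjusted p = 0.172) without WT 1 h replicate 1-2, and an exact test of 2 lists against 3 cannot give a p under 0.1. Over all times the difference was −0.39 (SE 0.122, adjusted p = 0.229). The element 6230 bp upstream of Cxcl2 had a difference in response of −1.30 (adjusted p = 0.685).

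At 18 h the response differed between genotypes in 0 of the tested members by limma (0.0317% of all elements better and 0.0503% worse in KO), with 2 better and 0 worse at an unadjusted p under 0.05 and 0 by the exact permutation test, which with 140 elements at its smallest p of 0.005 could not have called any. The 3 with the smallest p were the element 3716 bp past the Cxcl10 start (0.28, SE 0.0939, adjusted p = 0.531), the element 3759 bp upstream of Cxcl11 (0.96, SE 0.407, adjusted p = 0.692) and the element 12189 bp past the Cxcl5 start, where every KO value stood at the rank limit and the value of 0.17 is a description. For the Cxcl10 promoter the value was 0.84 (SE 0.435, adjusted p = 0.774). Its ranks at 18 h, 6633, 7003 and 5187 in WT against 3482, 3684 and 3864 in KO, did not overlap, but as a percentage of the list they were 7.93, 10.4 and 8.87 against 8.62, 10.7 and 10.1. The KO lists at 18 h held 34315 to 40412 entries and the WT lists 58461 to 83628.

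Other genes have promoters inside the windows. The Sdad1 promoter, 18077 bp past the Cxcl9 start, had a peak in all 17 lists at ranks 11805 to 23526 and ranked worse at 1 h (−0.66, SE 0.163, adjusted p = 0.00667), the 1 worse call in Cxcl9-11. The Art3 promoter region, 4469 bp upstream of Cxcl9, had a peak in 9 lists and did not enter the test. The 2 elements within 1 kb of the start of Pf4, a platelet chemokine, had peaks in 8 and 10 lists, and the first of these was tested and called in none of the 6 comparisons.

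Of 16 other genes of the family (ligands and receptors), 7 had a promoter element and 3 of these were tested. Cxcl16, the ligand of Cxcr6, gained 3.37 at 1 h (SE 0.345, adjusted p = 4.13e-06) and had a value of −2.83 from 1 to 18 h (adjusted p = 2.06e-05). Cxcr4, the receptor of Cxcl12, ranked worse at 1 h (−1.32, SE 0.195, adjusted p = 0.000126) and at 18 h (−0.78, adjusted p = 0.00625). The counts were thus 1 better and 1 worse of 3 tested at 1 h (13.3% and 14.4% of all elements), 0 and 1 at 18 h (9.53% and 13.0%), 0 and 1 from 1 to 18 h (12.4% and 14.8%), and by limma 0 for KO against WT and for both differences in response. Cxcr1, Cxcr2 and Cxcr6 had no promoter element, while Cxcr3 and Cxcr5 had one that did not enter the test.

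The promoters whose log2 ranks followed those of the 2 leading chemokines most closely over the 17 lists were named as a description, from Pearson's r over 9812 tested promoters. For Cxcl2 they were Adhfe1 (0.982), Gng4 (0.981), Rab12 (0.974), Camk2a (0.974) and Arhgdib (0.970). For Cxcl10 they were Snx10 (0.944), Ebi3 (0.922), Ccl5 (0.920), Isg15 (0.908) and Slfn3 (0.893), of which Isg15 and Slfn3 are known interferon-stimulated genes and Ccl5 is a chemokine for T cells and monocytes. Between Cxcl2 and Cxcl10 the value was 0.314. All of these points share the same lists, times and depths, so no p is given.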

How the data were processed

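ATAC-seq was carried out on nuclei of WT and Nur77-KO BMDMs. Per the labels and the study's methods, the authors trimmed reads with cutadapt 2.6, aligned them to mm10 and processed them with snakeATAC, and used DiffBind 3.0.15, which needs the reads and was not rerun. The peak caller is not given in the sources used here. Names of the deposited peaks mention a mapping quality of 20, removal of mitochondrial reads and duplicates, and a q-value of 0.001. The deposited narrowPeak lists, called per library, hold a fold enrichment (a ratio), −log10 of p and q, and a score, 10 times the −log10 q as a whole number. Here the −log10 p was turned into ranks inside each list, with mid-ranks for ties (the largest tie took 3.12 to 11.8% of a list), since the deposited −log10 p grows with depth.

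Summits more than 500 bp apart, best rank first, defined elements of 501 bp, whose value in a list was the best rank inside. Group means of the 6 genotype and LPS groups were fitted to log2 ranks with limma 3.58.1 in R 4.3.3, with a trended prior, for elements within rank 26558 in at least 2 lists. Genes came from GENCODE vM21. The methods were tested on simulated data. The changes planted for limma lay at elements within the rank limit at 0 h, so elements at the limit were not covered. The members, lists and tests were chosen with earlier results of these data known. Named elements were the promoter element of each gene, the 3 others of best mean log2 rank per cluster, up to 4 called elements with the largest difference per cluster and LPS comparison, and the 3 with the smallest p in each genotype comparison. Alternatives were the exact permutation test per element, other rank limits, filters, widths and scales, array weights, a replicate block and leaving out each list.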

Additional observations from a re-analysis of the deposited data

Results flagged for a closer look

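An adjusted p under 0.05 in limma for a difference between the genotypes in the response to LPS at 1 h brought 3 elements to this list. These elements entered the fit through the WT lists at 1 h alone, so that their direction was fixed beforehand and the fit is no test of a difference. Values are given as KO minus WT on the log2 rank scale. At the Cxcl1 promoter element the response was 1.60 in WT and 0 in KO, a difference of −1.60. The element 746 bp past the Cxcl2 start responded by 0.98 in WT and 0 in KO, a difference of −0.98. For the element 1824 bp past the Cxcl2 start the values were 0.64 and 0, a difference of −0.64.

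The KO value of 0 at each of these is set by the limit at rank 26558, beyond which all ranks are equal, and an equal value in every KO list makes the SE small. The exact permutation test of each element gave p = 0.1, the smallest value it can give at elements seen at 1 h alone, so it could not call them. Both WT ranks were better than each KO rank at all 3, but the lists ran from 26558 to 90176 entries, and as a percentage of the list the genotypes overlapped at both Cxcl2 elements and stayed apart at the Cxcl1 promoter element.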

How the results depend on the processing

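The Cxcl10 minus Cxcl2 response at 1 h and from 1 to 18 h kept its sign and passed the exact test under every alternative run, and leaving out 1 list gave −2.87 to −1.92 and 4.29 to 5.24. At 18 h against 0 h, where the Cxcl2 side stood at the rank limit, the range of 2.28 to 2.46 is nearly that of Cxcl10 alone. Counts of members called moved more. In the order 1 h against 0 h, 18 h against 0 h, 18 h against 1 h, KO against WT and the difference in response at 1 h, the main counts were 12, 7, 9, 2 and 3. They were 5, 2, 1, 0 and 0 with the best 10000 ranks, where 8 members were tested, and 7, 4, 3, 0 and 0 with the exact permutation test per element, where the last 2 could not be above 0. From 1 to 18 h the count was 5 with elements in at least 5 lists and 4 with merged peak intervals. For KO against WT it was 0 with both of these and with rank as a percent of the list, and 1 with a half-width of 100 bp. For the difference in response at 1 h it was 0 with at least 5 lists or percent ranks and 1 with merged intervals. Leaving out 1 list gave 9 to 13, 6 to 8, 7 to 10, 1 to 3 and 1 to 3, and 0 to 1 for the difference in response at 18 h, where the 1 came without KO 18 h replicate 3. Where 1 WT list at 1 h is left out, the other is assumed to vary like the other groups.

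The Cxcl2 promoter at 18 h against 0 h turned from 0.03 to −0.70 with percent ranks, and to −0.016 without WT 18 h replicate 2 in a range of −0.016 to 0.059 over the lists left out, and the Cxcl10 promoter in KO against WT turned from 0.26 to −0.080 with percent ranks and ranged from 0.0018 to 0.53 over the lists left out, highest without WT 1 h replicate 3. The call of the Cxcl2 promoter in KO against WT at 1 h, examined after its values were seen, was lost with percent ranks, merged intervals, array weights and the replicate block (adjusted p 0.116 to 0.762) and without 8 of 17 lists (each of WT 0 h replicates 1, 2 and 3, WT 1 h replicate 1-2, WT 18 h replicates 1 and 3, KO 0 h replicate 1 and KO 1 h replicate 2), in a range of −1.21 to −0.90. None of the values that turned passed the threshold in the reported form. The causes were not tested.

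Same-numbered lists did not deviate together (r −0.203 to 0.189 over 35 pairs, 4 over 0.1), so the numbers were not taken as pairing. With a replicate block, which gives WT 1 h replicate 1-2 a level of its own, the counts were 14, 7, 9, 4 and 4, and the Cxcl10 minus Cxcl2 values were −1.93 at 1 h, 2.37 at 18 h and 4.31 from 1 to 18 h.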

Other observations

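The letters AAAGGTCA, the motif that Nur77 binds as a monomer, were found within 100 bp of the summit in 2 of the 25 Cxcl1-5 elements and 0 of the 24 Cxcl9-11 elements, against 1.03% of all 130095 elements. One was the Cxcl3 promoter element, 44 to 51 bp past its summit, which had a peak in 6 lists, none of them at 1 h. The other lay 3089 bp past the Cxcl1 start, with the match 81 to 74 bp before the summit, and ranked 64954 in 1 WT list at 0 h, 33032 in 1 WT list at 1 h and 70597 in 1 KO list at 1 h. Neither entered the test. A match is a description and does not show binding.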
